A study of Drosophila melanogaster with 20 samples.

Results

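Adult female flies of Drosophila melanogaster sprayed with a mixture of black pepper (Piper nigrum) seed extract and pyrethrin were compared with flies sprayed with the ethanol carrier. The comparison comprised 8 of the 20 arrays of the series, chosen as all arrays whose treated sample is labelled as the combination. They held 4 treated extracts, numbered 2, 4, 5 and 6, and every extract went onto a pair of arrays, once with its RNA in Cy3 and once in Cy5. The combination flies received 2 mL of 0.1 mg/mL pepper extract with 0.004 mg/mL pyrethrin in 99% ethanol, and the control flies received 2 mL of 99% ethanol. All flies were of the Oregon-R strain and 4 to 10 days old, and RNA was taken 6 h after the spray from pools of about 240 whole females per extract. The remaining arrays, used here for 2 side comparisons, held flies given the pepper extract alone at 0.2 mg/mL (8 arrays, 4 extracts) or pyrethrin alone at 0.04 mg/mL (4 arrays, 4 extracts). Each dose in the combination was therefore lower than the dose of the same agent given alone.

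Pyrethrins are insecticidal esters of chrysanthemum flowers that hold voltage-gated sodium channels of nerve and muscle open. Black pepper seed holds amides, several of which are insecticidal themselves and inhibit cytochrome P450 enzymes, and P450 inhibitors are used as synergists that slow the breakdown of pyrethrins in the insect. In flies, foreign compounds are met mainly in the midgut, fat body and Malpighian tubules by P450s, which oxidise them, and by glutathione S-transferases and UDP-glycosyltransferases, which conjugate them. Stress at the level of cells and proteins is met by heat shock proteins and by the JNK kinase pathway.

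The arrays carried 16896 spots of cDNA, printed as neighbouring duplicates. A single gene symbol was given for 5666 spots (2377 symbols), and these genes are the ones named below, while 11078 spots had no symbol. The deposited value is a log2 ratio of the 2 channels, so it gives a difference between treated and control RNA and no level, and the labelled sex could not be checked against marker levels. The 8 arrays held 14970 to 16853 values each, with SDs of 0.348 to 0.6026 and correlations of 0.4024 to 0.7283 between duplicate spots. The labels do not say which channel is the numerator. It was read as combination over ethanol, which is likely and not certain. With the mean array of each dye orientation subtracted, the 2 arrays of 1 extract correlated at 0.037 to 0.475 across spots, positive in 4 of 4 extracts. Arrays that were not partners had a mean of -0.0909, but the subtraction itself pushes that mean to the opposite sign, so it is no independent yardstick. Of 12 such pairs 4 were positive, and the values ran from -0.4533 to 0.2046. The partner correlation was lowest in extract 2, at 0.037. The Cy3 array of extract 2 correlated at 0.1642 with the Cy5 array of extract 6. Before this subtraction the 2 arrays of 1 extract correlated at -0.1461 to 0.2689. The difference between the 2 arrays of an extract correlated between extracts at 0.2926 to 0.3867, positive in 6 of 6 pairs. The mean of the 2 arrays correlated between extracts at -0.3292 to 0.3192 (mean 0.0225), positive in 4 of 6 pairs. Under a reading of Cy5 over Cy3 this difference and this mean would change places.

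The first question was which transcripts stood apart from the ethanol control in all 4 extracts. Of 12889 features measured in at least 3 extracts, 0 passed an adjusted p of 0.05 in limma (0%), and the smallest adjusted p was 0.862. Without adjustment, 619 features (4.8%) had a p under 0.05, of which 327 (2.54%) lay above the control and 292 (2.27%) below it. Of the 2346 genes with a symbol, 52 were at an unadjusted p under 0.05 (2.22%), 31 above (1.32%) and 21 below (0.895%). The values of single genes below are therefore a description of the measured ratios, and none of them passed the test across all features. Differences were small: the mean over the extracts reached a log2 ratio of 0.5 in size in 8 genes (0.341%), while the median SD between extracts was 0.2507 and the median standard error 0.1331. The count of features at an unadjusted p under 0.05 was 291 without extract 2, 351 without extract 5, 603 without extract 4 and 1192 without extract 6, and the count that passed was 0 each time. The p-values measure the spread between these pools of flies. In RNA of whole flies, fewer cells of a type and less RNA per cell cannot be told apart.

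Of the 2217 genes measured in all 4 extracts, 165 (7.44%) were above the control in every extract and 147 (6.63%) were below it, close to the 7.75% and 7.25% of all features. Among them, the 12 above and the 12 below with the smallest unadjusted p are described here, and all 24 had a limma adjusted p of 0.862. Their mean was larger in size on the 4 arrays with treated RNA in Cy3 than on the 4 with treated RNA in Cy5 in 21 of 24 genes (87.5%), against 1462 of 2346 genes (62.3%) over all genes with a symbol. Each extract's value holds both orientations equally, so with ratios read as combination over ethanol a dye effect common to the arrays cancels. A fit of 8 arrays with a dye term gives the same mean by design where all spots are measured, as for Cyp12d1-p (0.48), Nmda1 (0.35) and Nop60B (-0.42). It is therefore no separate check. Where spot values were missing the means moved, for example from -0.56 to -0.50 for CG31294, -0.35 to -0.28 for Prosalpha4T2 and -0.35 to -0.37 for Gyc89Da. The unadjusted limma p of kek4 was 0.1155 in that fit.

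Cyp12d1-p, a mitochondrial cytochrome P450 known to be induced by foreign compounds, had log2 ratios of 0.44 in extract 2, 0.13 in extract 4, 0.69 in extract 5 and 0.68 in extract 6. All 4 extracts were above the control, with extract 4 the lowest. The mean was 0.48 ± 0.13 (SE, n = 4; 95% interval 0.18 to 0.78), 1.40-fold. The 2 arrays of extract 5 gave 0.69 and 0.69 and those of extract 6 gave 0.78 and 0.58, whereas the arrays with treated RNA in Cy5 of extracts 2 and 4 gave -0.05 and -0.04. The D. melanogaster genome holds a near-identical neighbour, Cyp12d1-d, whose RNA these spots cannot be told to exclude.

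Both puc and scaf belong to the JNK stress pathway. The phosphatase gene puc, a target and inhibitor of JNK signalling, stood at 0.35, 0.21, 0.35 and 0.26 in extracts 2, 4, 5 and 6. Its 4 values lay close together, with a mean of 0.29 ± 0.11 (SE, n = 4), and 7 of its 8 arrays were above 0. The scarface gene scaf, a serine protease homolog that is a JNK target in the embryo, stood at 0.34, 0.14, 0.37 and 0.54. Its mean was 0.35 ± 0.12 (SE, n = 4), with extract 4 again the lowest.

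Nmda1, a membrane protein of the Bax inhibitor family, had 4 nearly equal values of 0.30, 0.34, 0.37 and 0.39 (SD 0.0384). Their mean was 0.35 ± 0.11 (moderated SE, n = 4), an SE wider than these 4 values alone give. That evenness did not extend to single arrays, since the arrays with treated RNA in Cy3 averaged 0.68 and those with treated RNA in Cy5 averaged 0.02. The windpipe gene wdp, a leucine-rich repeat proteoglycan of the cell surface, stood at 0.16, 0.21, 0.37 and 0.52 in extracts 2, 4, 5 and 6 and was above 0 on 8 of 8 arrays. CG8032, listed in RefSeq with the synonym PAOX (a polyamine oxidase), stood at 0.36, 0.15, 0.20 and 0.52, also above 0 on 8 of 8 arrays. U4-U6-60K, a protein of the spliceosome, stood at 0.43, 0.22, 0.15 and 0.40.

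The remaining genes above the control in every extract were less uniform. Sgp stood at 0.80 and 0.84 in extracts 2 and 5 but at 0.0028 and 0.22 in extracts 4 and 6, for a mean of 0.46 ± 0.16 (SE, n = 4). The mean of kek4, a transmembrane protein with leucine-rich repeats, was the largest of the 24 genes in size at 0.76 ± 0.29 (moderated SE, n = 4). The SD of its 4 values was 0.9137, so this SE is narrower than they alone give. That mean rested on extract 4, where kek4 was at 2.05 against 0.11, 0.11 and 0.75 in extracts 2, 5 and 6. A single array of extract 4 gave 3.90 for it and the partner array gave 0.17; without extract 4 the mean of kek4 was 0.33. CG17002 averaged 0.36, CG7778 0.30 and CG6790 0.30, and the 2 spots of CG17002 differed in size, at 0.03 and 0.69.

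Below the control, the gene with the smallest unadjusted p of all named genes was CG31294, at -0.56, -0.47, -0.69 and -0.51 in extracts 2, 4, 5 and 6. The 4 extracts had an SD of 0.0955 around a mean of -0.56 ± 0.11 (SE, n = 4, 0.68-fold), and 7 of 8 arrays were below 0. These values take only spots measured on both arrays of an extract. Over all their spots the 2 arrays of extract 2 gave 0.0082 and -0.66. With spots averaged per array first the mean was -0.50. The same description, 7 of 8 arrays below 0, held for bsf, whose product binds and stabilises mitochondrial messenger RNA. It stood at -0.61, -0.79, -0.14 and -0.46, with a mean of -0.50 ± 0.13 (SE, n = 4).

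Nop60B, the pseudouridine synthase of ribosomal RNA, was below 0 on 8 of 8 arrays and stood at -0.53, -0.54, -0.35 and -0.25 in extracts 2, 4, 5 and 6, for a mean of -0.42 ± 0.12 (SE, n = 4). Its arrays with treated RNA in Cy3 averaged -0.74 and those with treated RNA in Cy5 averaged -0.10. Nap1, a histone chaperone that assembles nucleosomes, stood at -0.62, -0.47, -0.30 and -0.11. For both genes extracts 2 and 4 were the lowest and extract 6 was nearest the control.

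Orai forms the pore through which calcium enters cells when their stores are empty, and stood at -0.20, -0.27, -0.41 and -0.38 in extracts 2, 4, 5 and 6 and was below 0 on 8 of 8 arrays (mean -0.31 ± 0.11 SE, n = 4). CG11674 was likewise below 0 on 8 of 8 arrays, at -0.34, -0.45, -0.23 and -0.22. ATPsynGL and Prosalpha4T2, paralogs of a subunit of ATP synthase and of the proteasome that are known from testis, averaged -0.33 and -0.35. ATPsynGL was below 0 on 6 of 8 arrays and Prosalpha4T2 on 5 of 8. With spots averaged per array first, their means were -0.31 and -0.28. Cross-hybridisation of their more abundant relatives cannot be told apart from their own signal. Oseg5, of intraflagellar transport, averaged -0.32, pod1, which links actin and microtubules, -0.30 and Gyc89Da, an atypical guanylyl cyclase, -0.35. The value of dan, a nuclear protein of antennal development, was -0.63 ± 0.23 (SE, n = 4) and rested on extract 4, at -1.59 against -0.03, -0.63 and -0.27 in extracts 2, 5 and 6; 1 array of extract 4 gave -2.92, and the mean without extract 4 was -0.31.

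**Figure D1:**
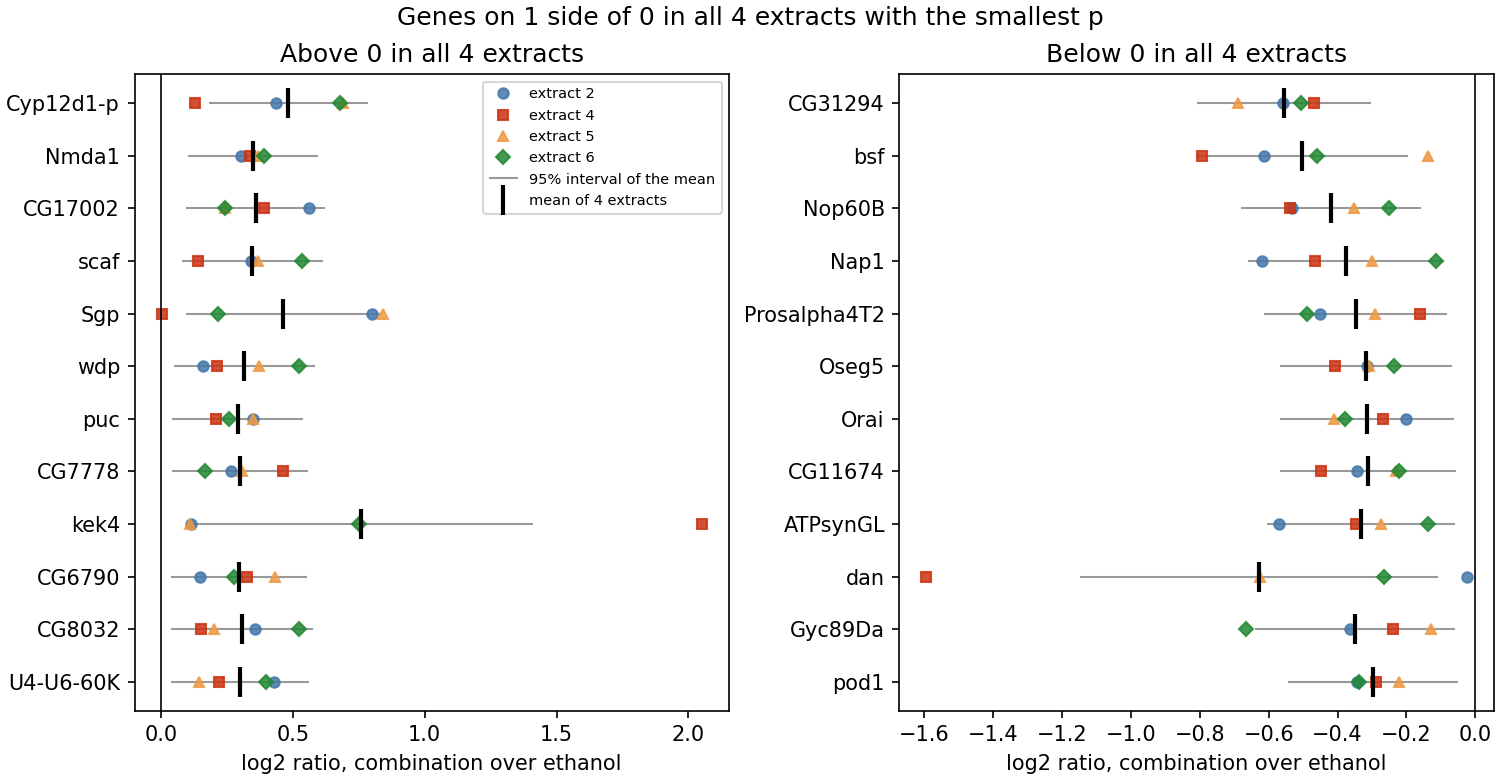
Log2 ratio of combination over ethanol (x axis) for the 12 genes above and the 12 below 0 in all 4 extracts with the smallest unadjusted p; each symbol is 1 extract (mean of 2 arrays), the black bar is the mean and the grey line its 95% interval. The 4 values of Nmda1 lie from 0.30 to 0.39, while those of kek4 run to 2.05 and those of dan to -1.59 in extract 4.

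Counting single arrays gave a shorter list. Of 2227 genes measured on 8 arrays, 12 were above 0 on all 8 (0.539%) and 11 were below 0 on all 8 (0.494%). The share over all features was not counted, and some genes would meet this count by sign alone. Besides wdp, CG7778 and CG8032, the genes above were Arc1, which forms RNA-carrying capsids at synapses, at 0.26 ± 0.11 (SE, n = 4), CG5191 at 0.26, the sirtuin Sirt7 at 0.31 (0.59, 0.56, 0.12 and -0.02 in extracts 2, 4, 5 and 6, where an extract's value takes only spots measured on both arrays), flap at 0.23, Crag at 0.24, capu, an actin nucleator of the oocyte, at 0.20, HisT at 0.19, CG8379 at 0.15 and wit, a receptor of the BMP pathway, at 0.15. Besides Nop60B, Orai and CG11674, the genes below were the proteasome lid subunit Rpn6 at -0.24 ± 0.11 (SE, n = 4), plum at -0.23, bon at -0.22, dnr1, an E3 ligase that inhibits caspase activation, at -0.22, CG10920 at -0.23, CG6497 at -0.20, CG13747 at -0.16 and CG31870 at -0.17. The smallest array value of Arc1 was 0.16 and the largest 0.52, the narrowest margin from 0 being that of CG31870, which came within -0.0004 of 0 on 1 array. This list was drawn up after the values were seen.

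The lists that follow are described by their counts and medians. Of the 29 lists with at least 3 genes tested, 15 medians turned sign when 1 extract was left out, and of the 14 that kept 1 sign 13 turned it where the ratios are read by channel.

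The genes that oxidise or conjugate foreign compounds were represented by few spots with a symbol, and 0 members of any list described from here on passed over all features (0% of all features passed). Of 4 cytochrome P450 genes, 2 had a mean above the control and 2 below, with a median of 0.09, where 50.5% of all genes with a symbol and 53% of all features had a mean above it. Besides Cyp12d1-p, Cyp4g15, a P450 of the nervous system, was above the control in 4 of 4 extracts at 0.12, 0.06, 0.04 and 0.56 in extracts 2, 4, 5 and 6, so that its mean of 0.19 came mostly from extract 6. Cyp6u1 averaged -0.0041 and Cyp4ac1 -0.02.

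The 3 glutathione S-transferase genes all had means above the control (median 0.12), and each had its highest value in extract 6; without extract 6 the median was -0.03. GstE2, of the epsilon class known for insecticide metabolism, stood at 0.25, -0.26, -0.18 and 0.67 in extracts 2, 4, 5 and 6, and GstZ2 stood at -0.07, 0.19, -0.09 and 0.55. In extract 6 all 3 genes were above the control and in extract 5 none was. The 7 UDP-glycosyltransferase genes had 2 means above the control and a median of -0.03, or -0.20 without extract 6. Ugt37E1 was below the control in 4 of 4 extracts, at -0.16, -0.08, -0.46 and -0.07 in extracts 2, 4, 5 and 6, so that its mean of -0.19 came mostly from extract 5.

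Antioxidant enzymes and their regulators had 6 of 8 means above the control and a median of 0.06. Gclm, the modifier subunit of the enzyme that makes glutathione, stood at 0.27, 0.28, 0.03 and 0.14 in extracts 2, 4, 5 and 6, and Keap1, the inhibitor of the xenobiotic response factor CncC, stood at 0.08, 0.24, 0.14 and 0.11. Both were above the control in all 4 extracts. Ccs, the copper chaperone of superoxide dismutase, was below it in all 4, at -0.09, -0.72, -0.17 and -0.05, while Sod2 averaged 0.03 and Sod3 0.0065.

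Of 6 genes of stress kinase signalling, 5 had means above the control, with a median of 0.04 (0.12 without extract 2). Apart from puc, kay, the fly Fos protein and a target of JNK, averaged 0.18 with -0.20 in extract 4 and 0.65 in extract 6. The kinase gene Mekk1 was at 0.86 in extract 4 and below the control in the other three, and hep, the kinase that activates JNK, averaged -0.05.

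The main voltage-gated sodium channel gene, para, whose product is the target of pyrethrins, was not among the genes with a symbol tested here. Of 12 genes of voltage-gated and potassium channels, 3 had means above the control and the median was -0.09 (-0.03 without extract 4). NaCP60E, a sodium channel related protein, stood at -0.20, -0.42, -0.12 and 0.08 in extracts 2, 4, 5 and 6. The potassium channel genes Sh averaged -0.06, Shab -0.04 and slo -0.08, and the calcium channel gene cac averaged 0.05. Ih, a hyperpolarisation-activated channel, was the member above the control in all 4 extracts, at 0.20, 0.42, 0.06 and 0.10. The 6 neurotransmitter receptors had a median of -0.04 (-0.13 without extract 6), with the serotonin receptor gene 5-HT1A at -0.22 ± 0.12 (SE, n = 4). The 5 genes of synaptic vesicle release all had means above the control and a median of 0.07 (0.21 without extract 4 and 0.03 without extract 2), and complexin, cpx, a regulator of vesicle fusion, was above it in all 4 extracts at 0.17, 0.59, 0.05 and 0.22. TRP channels, esterases and ABC transporters had 0 measured genes.

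Among 15 heat shock proteins and chaperones, 8 means were above the control and the median was 0.03 (-0.07 without extract 4). The co-chaperone gene stv stood at 0.21, 0.14, 0.26 and 0.26 in extracts 2, 4, 5 and 6, above the control in each (mean 0.22 ± 0.11 SE, n = 4). Hsp60C, a chaperonin of the mitochondrial family, stood at -0.16, -0.16, -0.17 and -0.23, below it in each. The inducible Hsp68 gene, by contrast, was at 0.63 in extract 4 and between -0.15 and 0.22 in the other three, for a mean of 0.16 ± 0.15 (SE, n = 4).

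The 10 genes of folding and translocation in the endoplasmic reticulum had 7 means above the control, 3 genes above it in all 4 extracts and a median of 0.13, the highest list median. The disulfide isomerase gene ERp60 stood at 0.72, 0.96, 0.06 and 0.03 in extracts 2, 4, 5 and 6, so that its mean of 0.44 ± 0.17 (SE, n = 4) came from extracts 2 and 4. GCS2alpha, the glucosidase that trims glycoproteins for folding, stood at 0.30, 0.05, 0.56 and 0.17, and prtp, a thioredoxin-domain protein, at 0.0028, 0.49, 0.26 and 0.05. Pdi, the main disulfide isomerase, ran from 1.46 in extract 5 to -1.14 in extract 6, the widest range of the list. Without extract 6 the median of the list was 0.25, and it was -0.13 where the ratios are read by channel.

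The oxidative phosphorylation genes lay on the other side, with 2 of 10 means above the control and a median of -0.13, the lowest list median. The median was -0.04 without extract 4, -0.31 without extract 6 and 0.17 where the ratios are read by channel. Besides ATPsynGL, SdhCL, a paralog of a succinate dehydrogenase subunit, was below the control in all 4 extracts at -0.15, -0.19, -0.08 and -0.44 in extracts 2, 4, 5 and 6. Several measured members (ATPsynGL, SdhCL, SdhBL, UQCR-11L, COX6AL and COX7AL) are paralogs of the main subunits, so the list is not a measure of the main subunits alone. Of the genes for mitochondrial gene expression and import, 3 of 8 had means above the control (median -0.02, or -0.17 without extract 6), and of the nucleolar and ribosomal RNA processing genes 3 of 8 (median -0.08). In the nucleolar list, Nopp140, a scaffold of the nucleolus, was below the control in all 4 extracts at -0.25, -0.10, -0.21 and -0.38, as was Nop60B.

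The 15 proteasome subunits had 6 means above the control and a median of -0.05, and the 6 cytosolic ribosomal proteins had 2 and a median of -0.05 (-0.14 without extract 6 and 0.01 without extract 4). Among 12 genes of fatty acid and phospholipid metabolism, 8 means were above the control, with a median of 0.06 (0.15 without extract 6). The phospholipase gene iPLA2-VIA stood at 0.25, 0.67, 0.52 and -0.03 in extracts 2, 4, 5 and 6 (mean 0.36 ± 0.14 SE, n = 4). CG5966, a lipase known to be high in fasted flies, was at 1.36 in extract 5 and from 0.06 to 0.33 in the others. In sugar metabolism Tps1, which makes the blood sugar trehalose, stood at -0.24, -1.29, -0.67 and 0.28, with a mean of -0.48 ± 0.22 (SE, n = 4) over values of both signs. Treh, the enzyme that splits trehalose, stood at 0.06, 0.29, 0.45 and -0.04 (mean 0.19, or 0.10 without extract 5).

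**Figure D2:**
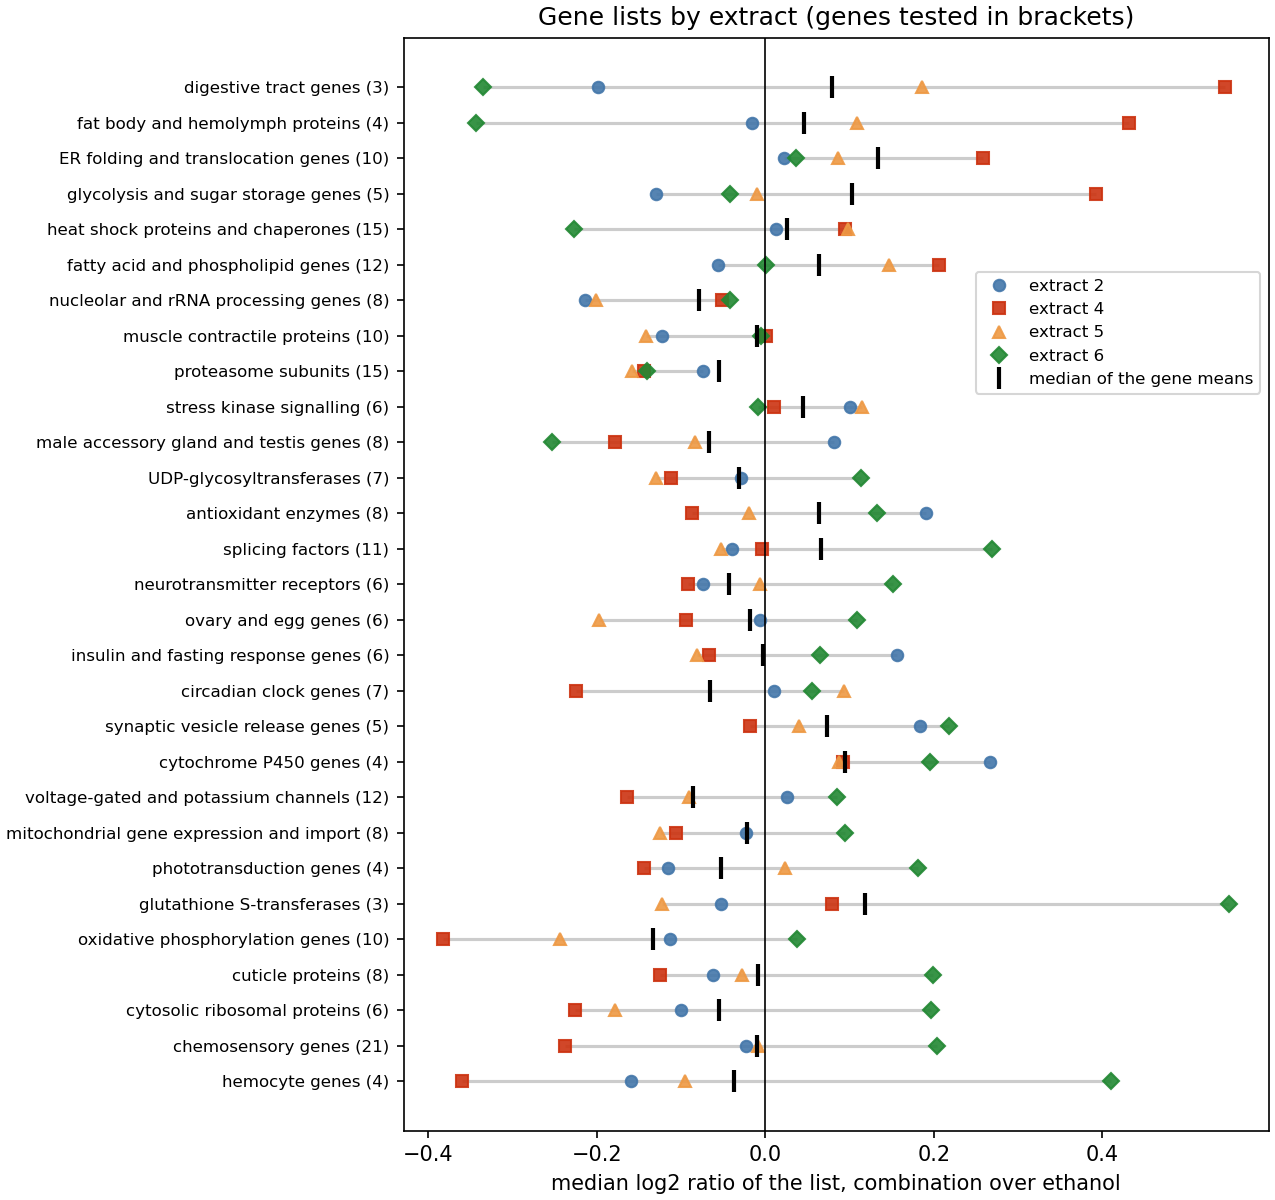
Median log2 ratio of combination over ethanol (x axis) of each list with at least 3 genes tested, for each extract (symbols) and as the median of the gene means (black bar); the number of genes tested is in brackets, and lists run from those with the highest extract 4 relative to extract 6 to those with the lowest. Extract 4 and extract 6 mark the ends of the grey line in many lists, with the fat body and hemolymph proteins at 0.43 and -0.34 and the hemocyte genes at -0.36 and 0.41.

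The 4 extracts did not share 1 profile, and extracts 4 and 6 lay farthest apart. Across the 2293 genes with values in both, the ratios of extract 4 and extract 6 correlated at -0.39, and 37.5% of the genes had the same sign. Extracts 4 and 5 correlated at 0.36, extracts 2 and 6 at 0.23, extracts 5 and 6 at -0.25, extracts 2 and 4 at 0.07 and extracts 2 and 5 at 0.03. These are correlations across genes, which are not independent replicates, and each extract was set against its own numbered control extract. Extracts 4 and 6 were also the widest, with an SD over genes of 0.338 and 0.3124 against 0.2247 in extract 2 and 0.2226 in extract 5. Extracts 4 and 6 were at least 1 log2 unit apart in 135 genes (5.89%), and extracts 2 and 5 in 16 of 2270 genes (0.705%).

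**Figure D3:**
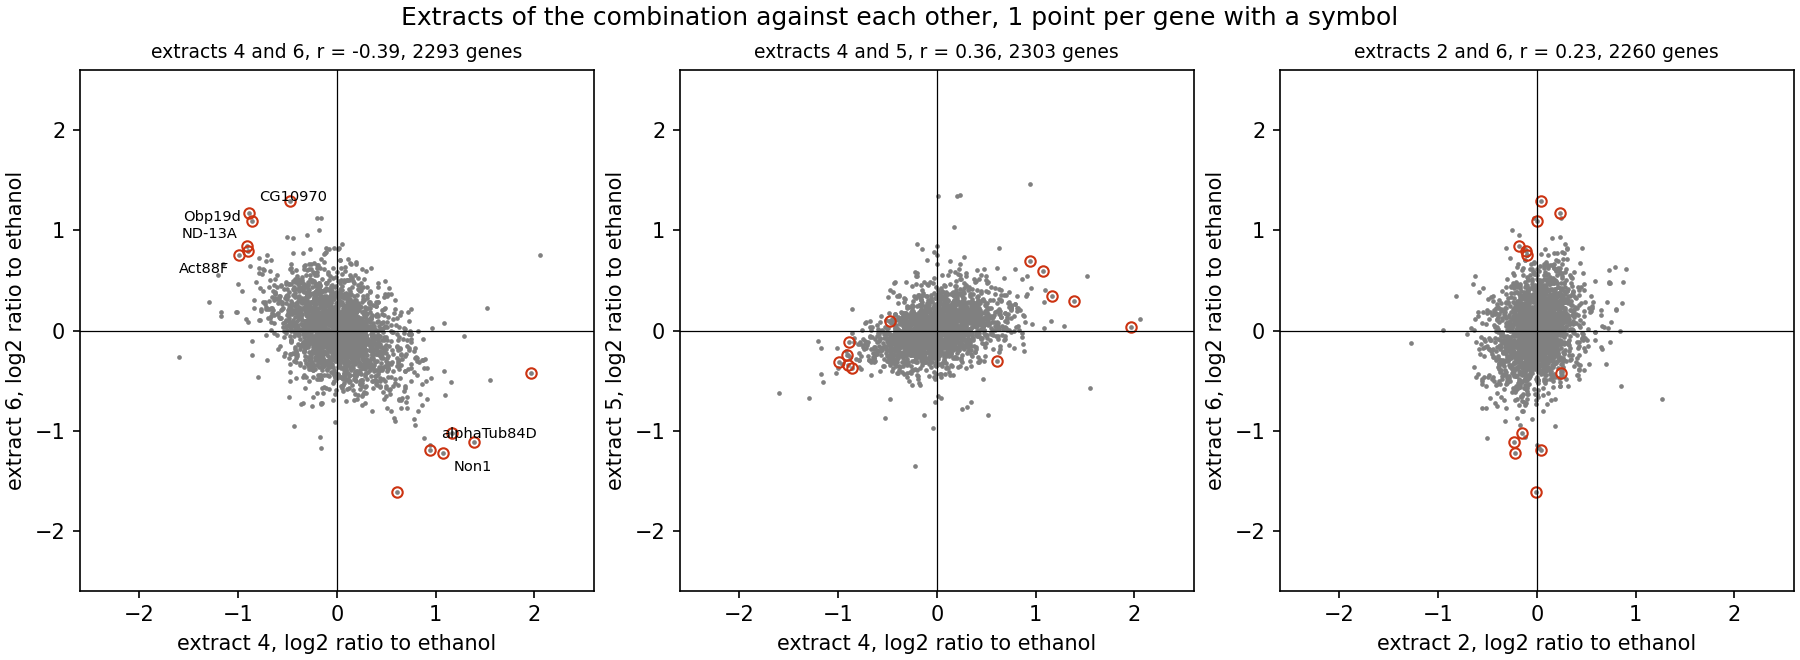
Log2 ratios to ethanol of 2 extracts of the combination against each other, 1 point per gene with a symbol, for extracts 4 and 6, 4 and 5, and 2 and 6; circles mark the 12 genes farthest apart between extracts 4 and 6. The cloud of extracts 4 and 6 runs from upper left to lower right (r = -0.39), and that of extracts 4 and 5 from lower left to upper right (r = 0.36).

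Across spots the arrays of extracts 4 and 6 with treated RNA in Cy5 correlated at -0.2418 and those with treated RNA in Cy3 at 0.046. Arrays of 1 orientation share any dye effect, so these values do not show whether the opposition depended on orientation. With the mean array of each orientation subtracted, the Cy3 array of extract 6 and the Cy5 array of extract 4 correlated at -0.4533. The Cy3 array of extract 4 and the Cy5 array of extract 6 correlated at -0.3933. That subtraction itself pushes such values below 0. The counts that follow take only genes with 1 sign on both arrays of each extract. In 763 genes (33.3%) both arrays of extract 4 had 1 sign and so did both arrays of extract 6, and in 536 of these (70.2%) the signs of the extracts were opposite. Of the 536, 254 were above the control in extract 4 and below it in extract 6, and 282 were the reverse. The other genes comprised 106 above in both extracts and 121 below in both. The differences below were chosen for their size and carry no test.

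Higher in extract 4 were l(1)G0289, at 1.39 in extract 4 and -1.11 in extract 6, and Non1, a GTPase of ribosome assembly, at 1.07 and -1.22. alphaTub84D, an alpha-tubulin, stood at 0.95 in extract 4 and -1.20 in extract 6, and extract 5 was on the side of extract 4 at 0.70. CG16782 stood at 1.17 and -1.02 and CG10734 at 0.61 and -1.62 in extracts 4 and 6. CG12464, at 1.96 and -0.42, rested on 1 array of extract 4 at 4.19, whose partner gave 0.21.

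Higher in extract 6 was Obp19d, an odorant-binding protein, at -0.86 in extract 4 and 1.09 in extract 6, where the 2 arrays of each extract gave -0.88 and -0.84 against 1.09 and 1.10. Extracts 2 and 5 lay between them, at 0.0014 and -0.37. Act88F, the actin of flight muscle, stood at -0.99 in extract 4 and 0.76 in extract 6, and ND-13A, a subunit of respiratory complex I, at -0.90 and 0.80. CG10970 was at -0.89 and 1.17, CG14757 at -0.91 and 0.84 and CG7381 at -0.47 and 1.30 in extracts 4 and 6.

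**Figure D4:**
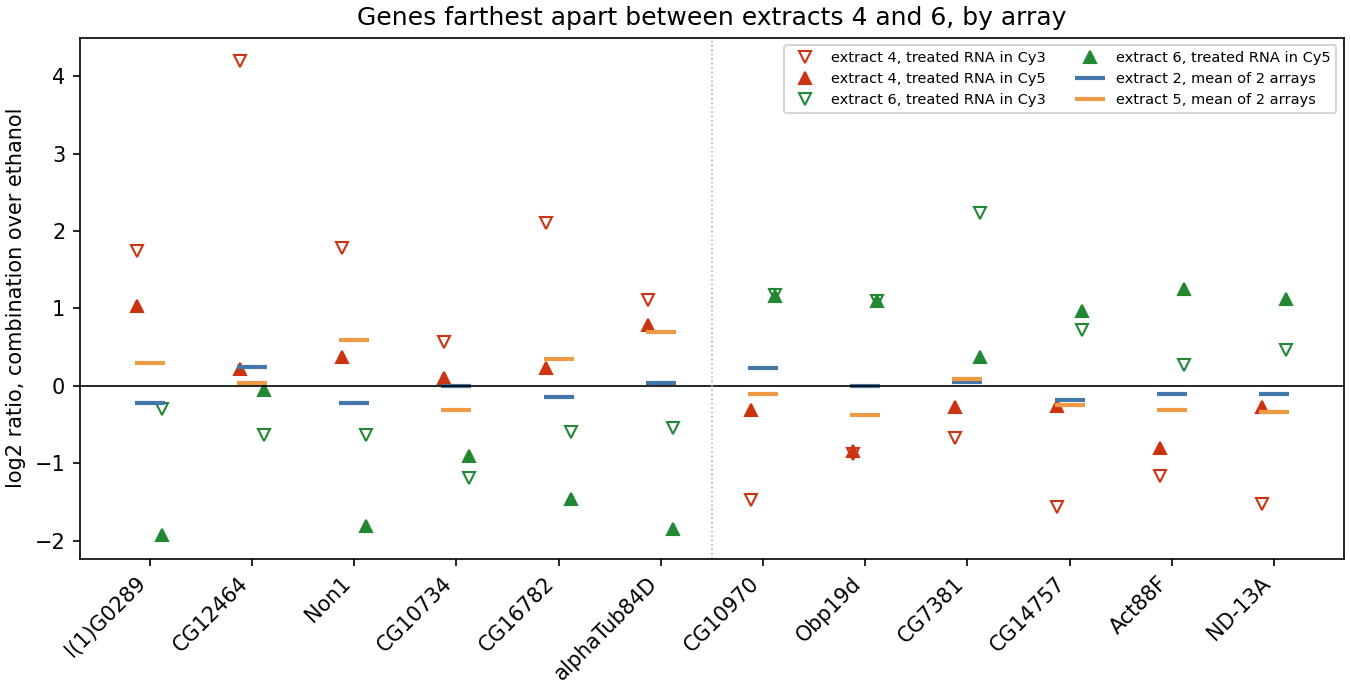
Log2 ratio of combination over ethanol (y axis) on the single arrays of extract 4 (red) and extract 6 (green) for the 6 genes farthest higher in extract 4 (left of the dotted line) and the 6 farthest higher in extract 6; open symbols are arrays with treated RNA in Cy3, filled ones with treated RNA in Cy5, and bars are the means of extracts 2 and 5. The genes were chosen for this separation, and 1 array of extract 4 stands at 4.19 for CG12464.

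Several lists followed the separation of these 2 extracts, read against 1146 of 2293 genes with a symbol (50%) that were higher in extract 4 than in extract 6. Chaperones were higher in extract 4 in 10 of 15 genes, with list medians of 0.09 in extract 4 and -0.23 in extract 6. Hsc70-2, a heat shock cognate protein, was at 1.15 in extract 4 and -0.52 in extract 6, Hsc70-1 at 0.65 and -0.78 and CCT2, a subunit of the cytosolic chaperonin, at 0.82 and -0.80. Genes of fatty acid and phospholipid metabolism were higher in extract 4 in 9 of 12 cases.

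Chemosensory genes, nearly all of them odorant-binding proteins, were higher in extract 4 than in extract 6 in 6 of 19 genes, with list medians of -0.24 and 0.20. Obp57c stood at -0.79 in extract 4 and 0.72 in extract 6, and Obp19b at -0.16 and 1.12. Channels were higher in extract 4 in 3 of 12 genes, cytosolic ribosomal proteins in 1 of 5, cuticle proteins in 2 of 7 and mitochondrial gene expression and import in 2 of 8.

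Tissue markers also had unlike values in the same 2 extracts. Proteins of the fat body and hemolymph (4 genes) had medians of 0.43 in extract 4 and -0.34 in extract 6, with apolpp, the precursor of the lipid carrier of the blood, at 1.55 and -0.50. LpR1 was at 0.49 and -0.19 and LpR2 at 0.37 and -0.58, while Fbp2 was near the control in both, at -0.07 and -0.02. The 3 digestive tract genes (Muc68D, yip7 and mag) were above the control in 3 of 3 cases in extract 4, with a median of 0.55, and in 0 of 3 in extract 6, with a median of -0.33. The 4 hemocyte genes had medians of -0.36 in extract 4 and 0.41 in extract 6, with NimB1 at -0.68 and 0.50 and vkg, a collagen, at -0.41 and 0.55. NimC1 was at -0.31 and 0.32, while Pxn had nearly the same value in both, at 0.16 and 0.15. The 10 muscle contractile proteins had members far apart in both directions, with TpnC41C, a troponin C, at -1.20 in extract 4 and 0.56 in extract 6, and Prm, the paramyosin, at 0.79 and -0.27, so that their medians of 0.0005 and -0.0045 do not describe single genes. The medians in extracts 4 and 6 were -0.09 and 0.11 for the 6 ovary and egg genes, -0.14 and 0.18 for the 4 phototransduction genes and -0.18 and -0.25 for the 8 male accessory gland and testis genes. The part of tissue content in the separation of the extracts was not tested.

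Over the 4 extracts the same markers had medians of both signs. The median of the gene means was 0.05 for fat body and hemolymph proteins, 0.08 for digestive tract genes, -0.04 for hemocyte genes, -0.0094 for muscle, -0.02 for ovary and -0.07 for male tissues. Leaving out extract 4 turned the fat body median to -0.10 and the digestive median to -0.08. The yolk protein receptor gene yl stood at -0.50, -0.40, -0.42 and 0.18 in extracts 2, 4, 5 and 6. The circadian clock genes had 2 of 7 means above the control and a median of -0.07, with Pdp1, a clock output factor, above it in 4 of 4 extracts at a mean of 0.16, and the insulin and fasting response genes had 3 of 6 and a median of -0.0021.

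The combination was then set beside the pepper extract alone at 0.2 mg/mL, with 4 extracts on each side. Both sets of arrays carry the same control extract numbers, and the extracts were compared as unpaired. With limma, 0 of 11502 features differed at an adjusted p of 0.05 (0%), and 535 were at an unadjusted p under 0.05 (4.65%). That count was 272 without replicates 3 and 4 of the pepper extract, whose arrays with treated RNA in Cy5 carry titles of another study. It was 413, 488, 371 and 448 without pepper extract replicate 1, 2, 3 or 4 alone, and each of these fits has fewer extracts. Cyp12d1-p was above ethanol in every extract of both treatments, from 0.13 to 0.69 after the combination and from 0.29 to 0.54 after the pepper extract, and the ranges overlapped. The difference was 0.09 with a 95% interval of -0.25 to 0.43 (limma adjusted p = 0.987). The extracts of puc ranged from 0.21 to 0.35 after the combination and from -0.02 to 0.09 after the pepper extract, a difference of 0.25 (95% interval -0.01 to 0.51, limma adjusted p = 0.959).

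Among the genes with the smallest unadjusted p in this difference, SdhCL ranged from -0.44 to -0.08 over 4 extracts of the combination and from 0.40 to 0.81 over 3 extracts of the pepper extract, a difference of -0.80 (95% interval -1.16 to -0.45, limma adjusted p = 0.919). Orai ranged from -0.41 to -0.20 after the combination and from -0.09 to 0.39 after the pepper extract, a difference of -0.53 (95% interval -0.84 to -0.21). For bsf the difference was -0.49, for Lamp1, a membrane protein of lysosomes, -0.57 and for CG18858 -0.52. On the other side were siz, an exchange factor of Arf GTPases, at 0.44, CG8032 at 0.43, BCAS2, of the spliceosome, at 0.44, the heparan sulfate synthesis gene botv at 0.45 and Zmynd8 at 0.37. The limma adjusted p was 0.959 for Orai and the other 8 genes.

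Pyrethrin alone at 0.04 mg/mL was hybridised with treated RNA in Cy3 only, so the 4 arrays of the combination with that orientation were set beside the 4 pyrethrin arrays. With limma, 0 of 12959 features differed at an adjusted p of 0.05 (0%), and 1062 were at an unadjusted p under 0.05 (8.2%). The pyrethrin arrays used control extract 3 (replicates 1 and 2) and control extract 4 (replicates 4 and 5), numbers that combination arrays carry too. With the control extract within each treatment as a random block, 663 features were at an unadjusted p under 0.05. That block tied only pyrethrin arrays to each other, and sharing of controls between the treatments was not modelled. Without pyrethrin replicate 1 the count was 644 and without replicate 5 it was 695. On these arrays Cyp12d1-p ranged from 0.29 to 0.92 after the combination and from 0.50 to 0.77 after pyrethrin, a difference of 0.06 (95% interval -0.35 to 0.47, limma adjusted p = 0.941). Both ranges were above ethanol and overlapped.

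The transcription factor gene of sex determination, dsx, ranged from -0.03 to 0.31 after the combination and from 0.89 to 1.46 after pyrethrin, a difference of -1.11 (95% interval -1.52 to -0.70, limma adjusted p = 0.583). The arrays of the 2 treatments did not overlap for dsx or for the genes named next. All were chosen for a small p in this same difference, and the share of all features without overlap was not counted. CG1924 at -0.90, CG18858 at -0.90, the cyclophilin gene Cyp1 at -0.71 and the chitin deacetylase-like gene ChLD3 at -0.62 were the other named differences below 0. Above 0 were CG11309 at 0.73, botv at 0.68, GCS2alpha at 0.68, CG18135 at 0.67 and scaf at 0.66, and the limma adjusted p was 0.583 for all 10. The doses of each agent differ between these treatments, so neither difference is a test of an interaction, and whether the treatments share control extracts is not stated in the labels.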

How the data were processed

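The deposited values are log2 ratios of the 2 channels of each array, with medians near 0; for their numerator and normalization the sources used here give nothing. Base 2 was inferred, since the largest value in size, 14.3, exceeds the largest natural logarithm of a 16-bit signal (11.1). Symbols came from the platform annotation and matched GCF_000001215.4. Each array's median was subtracted, the 2 arrays of an extract were averaged per spot where both had a value, and spots of a symbol were averaged. Features in at least 3 of 4 extracts were tested against 0 with limma 3.58.1 (R 4.3.3), two-sided, with Benjamini-Hochberg adjustment over all features and a threshold of 0.05. The number of arrays limits the precision. The limma fits against ethanol and against the pepper extract were tested on simulated, independent extract values. Median subtraction, averaging of arrays and spots, dye effects and the choice of numerator were not simulated. Genes named were the 12 above and 12 below in all 4 extracts with the smallest p, up to 4 members per list by p, the 6 in each direction farthest apart between extracts 4 and 6, 5 in each direction per difference, and Cyp12d1-p; other members are given to describe a list. Comparisons and lists (33, 29 with at least 3 genes) were chosen with earlier results of these data known, and 5 entries whose annotation showed another protein were removed after values were seen. Antimicrobial and Turandot genes had 2 measured members (median -0.03). Numbers of treated extracts shared by the treatments did not pair samples: deviations correlated at 0.1434 and -0.2014 with the pepper extract and at -0.0021, -0.0639 and -0.129 with pyrethrin. Pairing by the number of the control extract was not tested.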

Additional observations from a re-analysis of the deposited data

Results flagged for a closer look

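In the splicing factors (11 genes), the median log2 ratio of combination over ethanol was 0.27 in extract 6, apart from -0.04, -0.0044 and -0.05 in extracts 2, 4 and 5. The gap to the nearest extract was 0.8507 of the range over the 4 extracts, above Dixon's 95% critical value for 4 samples. It was the 1 value singled out among 53 sets of 4 extracts examined for a sample far from the others, and chance singles out about 1 in 20. In extract 6, 6 of the 11 genes were above the control, with SF2 at 0.82 and BCAS2 at 0.50.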

How the results depend on the processing

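The count for the combination against ethanol stayed at 0 under every alternative but 1, leaving out each extract included (0 to 0). The exception is the reading by channel (Cy5 over Cy3), in which the sign of the arrays with treated RNA in Cy3 turns. If the deposited ratio is combination over ethanol, dye effects add up in this reading. If it is Cy5 over Cy3, treatment differences do, and the labels do not say which it is. By channel, 825 features passed against ethanol and 178 in the combination minus the pepper extract, and extracts 4 and 6 correlated at 0.34. In that reading these genes turned sign against ethanol: Cyp12d1-p -0.19, Nmda1 -0.33, CG17002 -0.19, scaf -0.22, Sgp -0.23, wdp -0.052, puc -0.051, CG7778 -0.11, kek4 -0.29, CG6790 -0.18, CG8032 -0.055, U4-U6-60K -0.20, Nop60B 0.32, Nap1 0.27, Prosalpha4T2 0.37, Oseg5 0.15, Orai 0.13, CG11674 0.15, ATPsynGL 0.095, Gyc89Da 0.35 and pod1 0.16. In the difference to the pepper extract, siz -0.31, CG8032 -0.048, BCAS2 -0.18, botv -0.42, Zmynd8 -0.38, Lamp1 0.75, bsf 0.048 and CG18858 0.68 turned. CG31294, bsf and dan kept their sign against ethanol, and dan passed there (-0.66, limma adjusted p = 0.0491). The replicate block, by treated extract number, called 39 features in the combination minus the pepper extract (1223 with p under 0.05 before adjustment). That fit left 1 residual degree of freedom. The same block called 0 in the combination minus pyrethrin. Treated extract numbers did not pair the samples, and pairing by control extract number was not tested. Leaving out 1 replicate gave 0 to 0 calls in both differences, also without pepper extract replicates 3 and 4, whose reverse arrays carry titles of another study. The number of list medians above 0 was 12 of 29, and 10 to 16 with 1 extract left out. At an unadjusted p under 0.05, 1049 features stood in 1 fit with the pepper extract and 1057 with array weights (1.79, 0.68, 1.42 and 0.58 for extracts 2, 4, 5 and 6), where kek4 was 0.49. Signal over background was not analysed here.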
